A study of Mus musculus with 2 samples.

Results

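Cenpf, the proliferation gene Mki67 and 7 genes of the centrosome and nuclear envelope (Pcm1, Akap6, Akap9, Pcnt, Cdk5rap2, Syne1 and Syne2) were followed by symbol in heart sections profiled with the Visium CytAssist assay, which counts probe pairs per array spot as unique molecular identifiers (UMIs). All 9 genes were found among the 19465 genes of the counts. One section came from a control α-MHC-MerCreMer+/− mouse and 1 from a TOP2B transgenic α-MHC-MerCreMer+/− hTOP2B LSL/− mouse. MerCreMer, a recombinase switched on by tamoxifen, was driven by the α-MHC promoter of cardiomyocytes and was carried by both mice. In the transgenic line it removes a stop in front of a human TOP2B cDNA under the CAG promoter. Both received tamoxifen at 80 mg/kg. The study's methods give mice of 6 weeks and sibling controls for this single dose, and the day on which these hearts were taken is not given in the sources used here. Both sections were cut at 5 μm from paraffin blocks.

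Cenpf was chosen by its low log2 ratio between these same sections, so that ratio is given as a description. The other 8 genes were listed for what they are known to do, and all were chosen with earlier results of these data known. With 1 section per genotype no test was possible, and differences between mice, between sections and between genotypes cannot be told apart. Intervals in parentheses are 95% intervals for counting error only (exact Poisson for levels, exact conditional binomial for ratios, Clopper–Pearson for shares). The control section held 1256 spots and 14376300 UMIs (median 11335.5 per spot), and the transgenic section 924 spots and 12953389 UMIs (median 14531 per spot). The 725 spot barcodes found in both are array positions and not shared cells. Mouse Top2b had 1531 control and 1318 transgenic UMIs, a log2 ratio of -0.07 (-0.17 to 0.04), and whether its probes also read the human cDNA is not given in the sources used here.

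CENPF is a large coiled-coil protein that accumulates in the G2 phase, sits at the nuclear envelope and then at kinetochores during mitosis, and binds microtubules and their motors. MKI67 coats mitotic chromosomes and is a standard mark of cycling cells. Adult cardiomyocytes rarely divide, and during their maturation the microtubule-organizing function moves from the centrosome to the nuclear envelope. There, nesprins encoded by Syne1 and Syne2 span the outer nuclear membrane, AKAP6 binds nesprin and gathers further proteins, and PCM1, AKAP9, pericentrin (Pcnt) and CDK5RAP2 form the layer from which microtubules grow. Detection of PCM1 at the nuclear envelope is a common way to recognise cardiomyocyte nuclei.

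Cenpf and Mki67 share promoter letters that are typical of genes expressed late in the cell cycle. The cell cycle genes homology region (CHR, TTTGAA) is bound by the MuvB complex and the CCAAT box (CCAAT) by NF-Y. The windows below are RefSeq promoters on GRCm38.p6, from 250 bases before to 30 after the annotated start, 5′ to 3′ on the gene's strand. Both strands were searched, and each match is in capitals. They are shown because one of these 2 cell cycle genes was far lower in the transgenic section and the other was not, and Akap6 is shown as the other gene that was more than 2-fold lower.
Cenpf (chr1:189688057-189688336, minus strand): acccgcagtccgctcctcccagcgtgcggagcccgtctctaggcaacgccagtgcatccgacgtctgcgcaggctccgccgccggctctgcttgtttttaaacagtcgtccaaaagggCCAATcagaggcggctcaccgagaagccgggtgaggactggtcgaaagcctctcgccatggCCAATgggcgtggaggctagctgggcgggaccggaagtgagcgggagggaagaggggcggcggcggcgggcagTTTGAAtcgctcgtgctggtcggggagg
Mki67 (chr7:135716350-135716629, minus strand): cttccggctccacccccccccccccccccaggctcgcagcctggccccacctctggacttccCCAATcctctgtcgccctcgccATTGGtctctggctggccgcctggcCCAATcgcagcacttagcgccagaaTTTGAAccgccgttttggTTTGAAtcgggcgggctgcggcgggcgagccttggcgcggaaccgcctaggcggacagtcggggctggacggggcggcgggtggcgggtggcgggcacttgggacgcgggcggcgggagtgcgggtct
Akap6 (chr12:52699133-52699412, plus strand): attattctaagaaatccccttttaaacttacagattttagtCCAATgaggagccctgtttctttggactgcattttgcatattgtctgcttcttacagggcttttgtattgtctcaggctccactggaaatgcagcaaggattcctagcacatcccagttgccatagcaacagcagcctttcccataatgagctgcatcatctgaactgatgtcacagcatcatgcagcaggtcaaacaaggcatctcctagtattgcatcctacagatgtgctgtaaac
The Cenpf window held 1 CHR starting at base 3 after the start and CCAAT at -132 and -71. The Mki67 window held the CHR at -116 and -98 and CCAAT at -188, -166 (as its reverse complement) and -141. Akap6 had no CHR and 1 CCAAT at -209. Of all 32851 promoters in the table, 17.2% held the CHR letters and 36.1% held CCAAT on either strand. Among the 8 of 9 genes with an entry, Cenpf and Mki67 were the only ones with the CHR letters. Entries for Syne1, Syne2, Akap9, Pcnt and Cdk5rap2 were searched in the same way, and among them only Akap9 held a match, CCAAT at -88 (as its reverse complement). Pcm1 had no entry. A match describes letters only, not binding.

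Cenpf was the gene of the set with the largest difference between the sections. The control section held 354 Cenpf UMIs (318 to 393) and the transgenic section 25 (16.2 to 36.9). This is 24.6 CPM (22.1 to 27.3) against 1.93 CPM (1.25 to 2.85), where CPM are UMIs per 1000000 UMIs of the section. The control level was 12.8-fold (8.50 to 19.99) higher, a log2 ratio of transgenic over control of -3.67 (-4.32 to -3.09). Among 15236 genes with at least 20 UMIs over both sections its ratio was number 6 from the lowest. Among the 8021 genes that reached 200 UMIs in one section or the other, its neighbours in this order were Lrtm1 at -3.67 and Mrgprh at -3.59. The share of spots differed as well. At least 1 Cenpf UMI was found in 23.2% (20.9% to 25.7%) of control spots and 2.71% (1.76% to 3.97%) of transgenic spots, and the highest count in a spot was 3 against 1. With every spot thinned to 8228 UMIs the shares were 17.4% and 1.78%, and 148 control and 79 transgenic spots that were too shallow were left out. Quadrants of the control section, split at the middle of the tissue, held 22.8 to 26.4 CPM and those of the transgenic section 1.15 to 2.75 CPM. Quadrants are parts of 1 section and not replicates. How many of all genes have quadrant ranges that lie apart was not computed, so the ranges given here and below only describe spread within a section. Fewer cells that express a gene and less RNA per cell cannot be told apart in these counts.

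Per UMI of the section, Mki67 had close levels in both sections. Its 74 control UMIs (58.1 to 92.9) and 69 transgenic UMIs (53.7 to 87.3) were 5.15 and 5.33 CPM, a log2 ratio of 0.05 (-0.45 to 0.54). A difference inside that interval was not detectable at this depth. For every Mki67 UMI there were 4.78 Cenpf UMIs in the control and 0.362 in the transgenic section. This ratio is given for its difference between the sections, not as the level of one gene against the other. Spots with Mki67 made up 5.33% (4.16% to 6.73%) and 6.93% (5.37% to 8.76%).

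Akap6, the adaptor that links nesprin to the centrosomal proteins of the nuclear envelope, was the other gene past 2-fold per UMI of the section. Its 310 control and 127 transgenic UMIs were 21.6 CPM (19.2 to 24.1) and 9.80 CPM (8.17 to 11.7). The log2 ratio was -1.14 (-1.45 to -0.83). Control quadrants held 19.4 to 24.2 CPM and transgenic quadrants 6.87 to 13.8 CPM. Spots with Akap6 made up 21.3% (19.0% to 23.6%) and 12.8% (10.7% to 15.1%). Per UMI of the section, Cenpf and Akap6 made 2 of 9 genes lower by a log2 ratio of -1 or less, and 0 of the 9 were higher by 1 or more. Both counts change when UMIs of cardiomyocyte gene lists are the base, as given with the shares of the gene lists. Of all 15236 genes, 5.61% were that much lower and 13.7% that much higher. Cenpf was chosen for its low ratio, so its place among the 2 was fixed in advance. That leaves Akap6 as the only gene to set beside the 5.61%.

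The genes of the proteins that AKAP6 gathers differed less, and not in one direction. Pcm1, the centriolar satellite scaffold, had 320 control UMIs (22.3 CPM) and 391 transgenic UMIs (30.2 CPM), a log2 ratio of 0.44 (0.22 to 0.66). Its control quadrants held 20.8 to 24.9 CPM and its transgenic quadrants 26.5 to 36.4 CPM. Akap9, a scaffold for kinases and for microtubule nucleation, had 560 and 418 UMIs (39.0 and 32.3 CPM), a log2 ratio of -0.27 (-0.46 to -0.09). Pericentrin, which anchors the gamma-tubulin ring complex, had 1566 and 1196 UMIs (108.9 and 92.3 CPM), and a log2 ratio of -0.24 (-0.35 to -0.13). The quadrants of Pcnt held 107 to 110.4 CPM in the control and 79.99 to 99.98 CPM in the transgenic section. Those of Akap9 held 33.3 to 44.1 CPM and 28.4 to 42.3 CPM. Cdk5rap2, an activator of microtubule nucleation, had 189 and 149 UMIs (13.1 and 11.5 CPM), with an interval of the log2 ratio that spanned 0 (-0.19, -0.51 to 0.12). Among these 4 genes Pcm1 was thus the one with a higher level in the transgenic section.

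The nesprins, which tie the nucleus to the cytoskeleton, stayed near the other genes. Syne1 had 1093 control and 1188 transgenic UMIs, or 76.03 and 91.7 CPM, a log2 ratio of 0.27 (0.15 to 0.39). Syne2 had 280 and 248 UMIs, or 19.5 and 19.1 CPM, a log2 ratio of -0.02 (-0.28 to 0.23). Their quadrants overlapped. The median log2 ratio of all 15236 genes was 0.20, so Syne1 lay close to that median and Akap9, Pcnt and Cdk5rap2 lay below it. With edgeR's TMM factors every log2 ratio is 0.16 lower, which leaves all these positions relative to other genes as they are. The probes of this assay read short stretches of each gene, and the sources used here do not say which. Short and giant isoforms of Syne1, Syne2 or Akap6 were therefore not told apart. UMIs of one gene per UMI of another gene or list are given only to set that ratio between the sections.

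**Figure D1:**
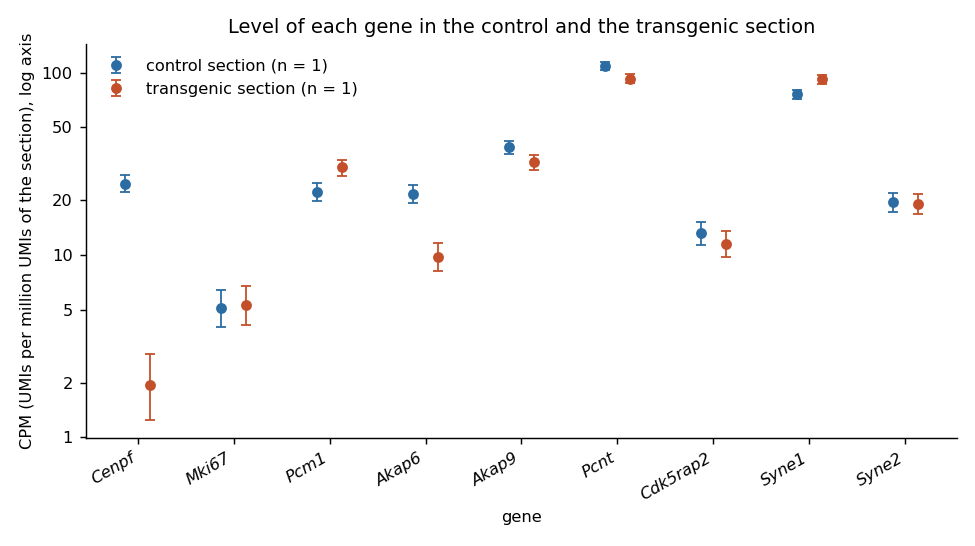
Level of each of the 9 genes, in CPM on a log axis, in the control (blue) and the transgenic (orange) section, 1 section each. Points are section totals and bars are 95% Poisson intervals for counting error only. Cenpf stands at 24.6 against 1.93 CPM and Akap6 at 21.6 against 9.80 CPM, while Mki67 stands at 5.15 against 5.33 CPM.

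The shares of UMIs from lists of cell type genes also differed between the sections. A list of 19 measured sarcomere genes made up 11.1% of control UMIs and 6.61% of transgenic UMIs, and 13 measured metabolic genes of cardiomyocytes 7.52% and 3.54%. The summed share of all 10 fibroblast markers was 0.151% and 0.618%, of all 10 macrophage markers 0.0303% and 0.0594%, and of 5 measured erythroid genes 0.215% and 2.04%. The 10 endothelial markers (0.128% and 0.113%) and the 10 mural markers (0.127% and 0.129%) were closer. No marker of these lists was at 0 in either section. Within a list the genes differed widely. Log2 ratios ran from -2.62 for Tcap to 0.17 for Tnnt2 in the sarcomere list. In the fibroblast list they ran from 0.06 for Dpt to 4.43 for Mfap4. The shares therefore do not tell the number of cells from the level of each gene per cell. Set against sarcomere UMIs in place of all UMIs, Cenpf still differed, with 221 per 1000000 sarcomere UMIs for the control and 29.2 in the transgenic section (ratio 0.132, 0.0842 to 0.198). For Akap6 the corresponding values were 194 and 148 (ratio 0.765, 0.617 to 0.943), and against the metabolic list 287 and 277 (0.967, 0.780 to 1.19). Per sarcomere UMI the log2 ratio was thus -0.39 for Akap6 and -2.92 for Cenpf, beside -1.14 and -3.67 per UMI of the section. On this base the other 7 genes were higher in the transgenic section. Pcm1 was at 1.19 and Syne1 at 1.02, and Mki67 had a ratio of 1.74 (1.24 to 2.45). So 1 of the 9 genes, Cenpf, was more than 2-fold lower and 2 were more than 2-fold higher per sarcomere UMI. Per metabolic UMI Cenpf was again the 1 gene lower, at -2.59, and 4 were higher, Pcm1 (1.53), Syne1 (1.36), Mki67 (1.14) and Syne2 (1.06). Akap9 and Pcnt turned from lower to higher on both bases. A change of base moves the log2 ratio of every gene by the same amount. The 5.61% and 13.7% of all genes given per UMI of the section therefore do not apply to these counts. The share of all genes past 2-fold on either base was not computed, so these counts say nothing particular about the 9 genes. The part of tissue makeup in these shares and in the ratios was not tested.

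Genes of the cell cycle and the kinetochore were set beside Cenpf. Counts past 2-fold in the lists that follow stand beside the 5.61% of all 15236 genes that were that much lower and the 13.7% that were that much higher, and a count near these shares says nothing particular about a list. Of 19 G2 and mitosis genes with at least 20 UMIs, none was lower by 2-fold and 2 were higher. These were Bub1b (log2 ratio 1.57, on 6 and 16 UMIs), a checkpoint kinase, and Nusap1 (1.07), a spindle protein. The median of the 19 genes was 0.51 and the lowest was Bub1 at -0.85, on 14 and 7 UMIs. Cdk1, the mitotic kinase, had the most UMIs among them and was at 0.57 (0.19 to 0.94). The list summed to 541 control and 652 transgenic UMIs, so Cenpf came to 65.4 UMIs per 100 list UMIs in the control and 3.83 in the transgenic section. For 17 S phase genes, which replicate DNA, the median was 0.02, and none passed 2-fold in either direction, from Mcm5 at -0.80 to Dtl at 0.98. Among 17 kinetochore genes 1 was lower, Spc24 at -1.55, and 2 were higher, Cenpt at 1.33 and Nuf2 at 1.24. The Nuf2 value rests on 8 and 17 UMIs with an interval that spans 0 (-0.05 to 2.66). Spc24 and Nuf2, which went in opposite directions, both encode subunits of the NDC80 complex. The dynein regulators Nde1 and Ndel1, which bind CENPF, were at 0.68 and 0.56. No gene of these lists had a ratio as low as Cenpf. Cenpf was chosen for its low ratio and stood number 6 from the lowest of the 15236 genes, so this was nearly fixed in advance.

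The wider centrosome and nuclear envelope lists had medians on either side of the 0.20 of all genes. Of 28 centrosome genes none was lower by 2-fold and 2 were higher, Ninl at 2.23 and Cep164 at 1.20, with a median of 0.15. The lowest was Pde4dip at -0.95, which encodes myomegalin, a relative of CDK5RAP2, and had 10281 and 4785 UMIs. Of 20 nuclear envelope genes 3 were higher and none lower, with a median of 0.40. Lmna, encoding lamins A and C, was at 1.51 with 4080 and 10482 UMIs, Tmem43 at 1.39 and Fhl1 at 1.21, while Banf1 was lowest at -0.45. The nesprin-binding SUN proteins Sun1 and Sun2 were at 0.25 and -0.15. Of 15 partners of nesprins, AKAPs and CENPF, 2 were lower. These were Prkar2a at -1.19, the regulatory subunit of protein kinase A that AKAPs anchor, and Rhot2 at -1.11, a mitochondrial GTPase of the family that CENPF binds. The 3 genes of the list that were higher were Dync1i2 at 1.05, Dync1h1 at 1.01 and Mapre1 at 1.01. With TMM factors neither those 3 genes nor Nusap1 reached 1, while Pde4dip, Bub1 and the phosphodiesterase Pde4d passed below -1.

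**Figure D2:**
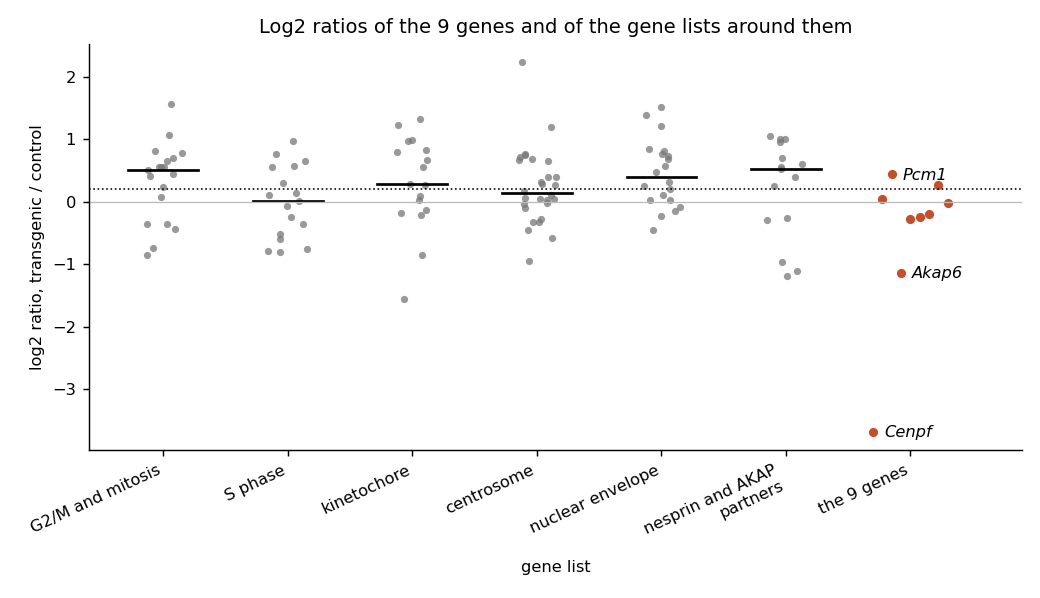
Log2 ratio of transgenic over control CPM for the genes with at least 20 UMIs in 6 lists (grey points, with the median of each list as a black bar) and for the 9 genes (orange, 3 of them named). The dotted line is the median of all 15236 genes, 0.20. Cenpf, which was chosen for its low ratio, stands at -3.67.

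Within the control section the question was whether Cenpf follows proliferation or the cardiomyocyte content of spots. Cenpf was higher in spots with a Mki67 UMI, and the other splits by cell cycle genes gave folds near 1. The 67 control spots with a Mki67 UMI held 38.4 CPM of Cenpf and the 1182 without held 23.8 CPM, both among spots with at least 1000 UMIs. The fold was 1.61 (1.08 to 2.34), and 1.73% of the 7221 genes with at least 200 control UMIs reached 1.5-fold in the same split. The median depth of the 2 groups was alike, at 11279 and 11362.5 UMIs per spot. Of the 354 Cenpf UMIs, 31, or 8.76%, lay in Mki67 spots, which made up 5.33% of all control spots, and 22 spots held both. When spots next to a Mki67 spot were added the fold was 0.995 (0.786 to 1.25). Between spots with and without any UMI of the G2 and mitosis list it was 1.01 (0.802 to 1.25), and for the S phase list 1.06 (0.845 to 1.34). In those list splits Mki67 itself gave 1.16 (0.70 to 1.89) and 1.19 (0.711 to 2.06). Of the other genes, Akap6 had the fold farthest from 1 in Mki67 spots, 0.503 (0.228 to 0.968) on 9 UMIs. It was picked as the most extreme after the values were seen, and 0.665% of the 7221 genes had a lower fold. The intervals of Pcm1, Akap9, Pcnt, Cdk5rap2, Syne1 and Syne2 spanned 1. In the transgenic section 1 of 25 Cenpf UMIs lay in a Mki67 spot, which gives a fold of 0.557 with an interval from 0.0135 to 3.42.

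Cenpf showed no detectable difference by sarcomere gene content in the control section. In 4 equal groups of spots from the poorest to the richest in sarcomere UMIs it held 23.8, 24.1, 24.0 and 26.4 CPM, and the richest over the poorest group gave a fold of 1.11 (0.817 to 1.51). At 1.5-fold in this split, 0.166% of the 7221 genes were higher and 2.20% lower. The contrast is narrow, since the sarcomere share ran only from 10.2% to 11.9% of UMIs between the 10th and 90th percentile of spots. Ranked by the metabolic list, Cenpf was lower in the richest group, at a fold of 0.689 (0.506 to 0.936). In that split 3.50% of the 7221 genes had a lower fold. Akap6 gave 1.12 (0.815 to 1.55) by sarcomere and 0.998 (0.716 to 1.39) by metabolic share. Between these 4 groups Syne1 was the one of the 9 genes with a sarcomere fold whose interval left out 1, at 0.769 (0.647 to 0.914). With 3 equal groups it was 0.907 (0.782 to 1.05), with 2 equal groups 0.913 (0.809 to 1.03) and by the metabolic list 1.12 (0.951 to 1.33). With 2 equal groups Mki67 was higher in the sarcomere-rich spots, at 1.69 (1.03 to 2.84). Its fold was 1.097 (0.528 to 2.32) with 4 equal groups and 1.549 (0.827 to 2.99) with 3. By the metabolic list Mki67 gave 0.772 (0.397 to 1.48), so its direction was not the same across these splits. By fibroblast share, Akap6 (1.69, 1.19 to 2.42) and Syne1 (1.23, 1.04 to 1.46) were higher in the richest group, and Cenpf gave 1.36 (0.999 to 1.87). Syne1 was also higher by macrophage share (1.25, 1.04 to 1.49) and Pcm1 by epicardial share (1.43, 1.04 to 1.96). Pcm1 was lower by S phase share (0.712, 0.508 to 0.993) and Pcnt by metabolic share (0.820, 0.708 to 0.949). These folds were picked from many splits after the values were seen. By metabolic share, 16.3% of the 7221 genes had a lower fold than Pcnt. For the splits by fibroblast, macrophage, epicardial and S phase share, and into 2 or 3 groups, the share of all genes with such folds was not computed. In spots with a Cenpf UMI the sarcomere, endothelial, fibroblast, mural and macrophage lists were within 3% of their level in other spots, while the erythroid list was at 0.851-fold (0.828 to 0.875), the atrial list at 0.772-fold (0.639 to 0.928) and the epicardial list at 0.339-fold (0.202 to 0.539).

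Cenpf differed by place in the wall of the control section. This pattern was noticed on the map of its UMIs and then measured, so that its fold is a description. By array position the control section is a ring of tissue around an enclosed gap of 78 array positions. That gap was taken as the cavity and the ring as ventricular wall, without the section images. Spots of the wall were ranked by their distance in spot steps from the outer edge relative to that from the cavity, and cut into 4 zones of equal spot number. From the outer to the inner zone Cenpf held 17.9 CPM (13.6 to 23.1), 17.5 CPM (13.5 to 22.2), 29.2 CPM (24.1 to 35.2) and 33.8 CPM (27.9 to 40.6). The inner zone was thus higher than the outer by 1.89-fold (1.37 to 2.63). Of the 7221 genes, 1.09% were 1.5-fold or more higher in the inner zone and 1.09% that much lower, and Cenpf was number 13 from the highest. Mki67 gave 1.24 (0.630 to 2.49), the sarcomere list 1.01, the metabolic list 0.991, the endothelial list 0.952, the fibroblast list 0.938 and the mural list 0.956. Further from 1 were the epicardial list at 0.162, the atrial list at 0.584 (0.486 to 0.699), the macrophage list at 0.835 (0.765 to 0.912) and the erythroid list at 1.11 (1.08 to 1.15), and their part in the Cenpf fold was not tested. Cdk5rap2 was lower in the inner zone (0.607, 0.374 to 0.971) on 31 and 49 UMIs, and the intervals of Pcm1, Akap6, Akap9, Pcnt, Syne1 and Syne2 spanned 1. The deposited Moran's I, a score of how much neighbouring spots resemble each other, was 0.0865 for Cenpf in the control section, number 122 of 19219 genes scored. The next of the 9 genes were Mki67 at 0.0199 and Syne2 at 0.0151, and the rest ran from -0.0104 for Pcm1 to 0.0103 for Akap9.

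The inner position of Cenpf belonged to one side of the section. On the right side by array column, the inner zone exceeded the outer by 4.25-fold (2.48 to 7.67), and on the left side the fold was 1.01 (0.650 to 1.58). With the wall of each quadrant cut into 2 layers, the inner layer held 37.8 and 38.0 CPM and the outer layer 11.4 and 9.39 CPM in the right quadrants. The left quadrants had 21.3 and 23.3 CPM in the inner and 26.2 and 29.6 CPM in the outer layer. Cenpf was therefore low in the outer wall of the right side and present through the whole wall on the left. Lrtm1, its neighbour in the order of log2 ratios, had 386 CPM in the outer zone and 21.3 CPM in the inner zone over the whole section. It was higher in the outer layer on the left side as well. The left quadrants held 379 and 191 CPM of Lrtm1 in the outer and 176 and 144 CPM in the inner layer. Cenpf was not lower in the outer layer there, so the 2 genes lay in opposite layers on the right side only. Of 4 equal groups of spots, the poorest in Lrtm1 held 34.8 CPM of Cenpf and the richest 14.7 CPM, a fold of 2.36 (1.70 to 3.32), and 1.72% of genes reached 1.5-fold in this split. That fold was 4.67 (2.73 to 8.46) on the right side and 1.27 (0.809 to 2.00) on the left side. Lrtm1 was looked at after Cenpf had been set against all genes, so its opposition to Cenpf is a description. The 25 Cenpf UMIs of the transgenic section lay in 25 spots, with 4, 7, 7 and 7 from the outer to the inner zone of its wall, and its Moran's I of 0.00200 rests on those 25 UMIs. The transgenic section had another outline and a cavity of 154 positions, and whether the wall zones of the 2 sections hold the same regions of the heart was not tested.

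**Figure D3:**
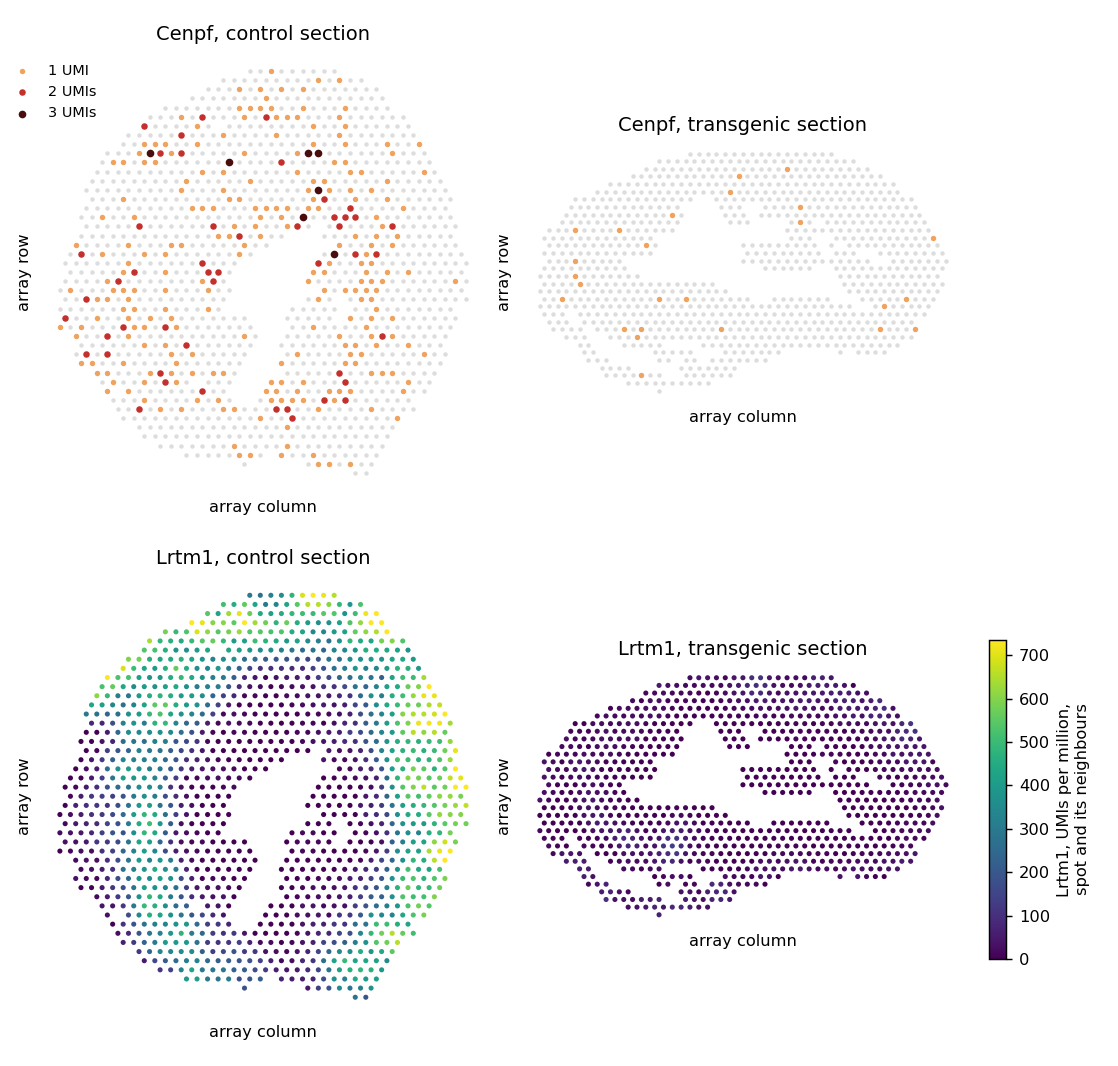
Maps of the main piece of tissue in the control (left) and the transgenic (right) section by array row and column, each drawn to its own scale, with Cenpf UMIs per spot above (grey spots have none) and Lrtm1 below in CPM over a spot and its neighbours. In the control section spots with Cenpf are rare along the right outer wall, where Lrtm1 is highest, and the transgenic section has 25 spots with 1 Cenpf UMI each.

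**Figure D4:**
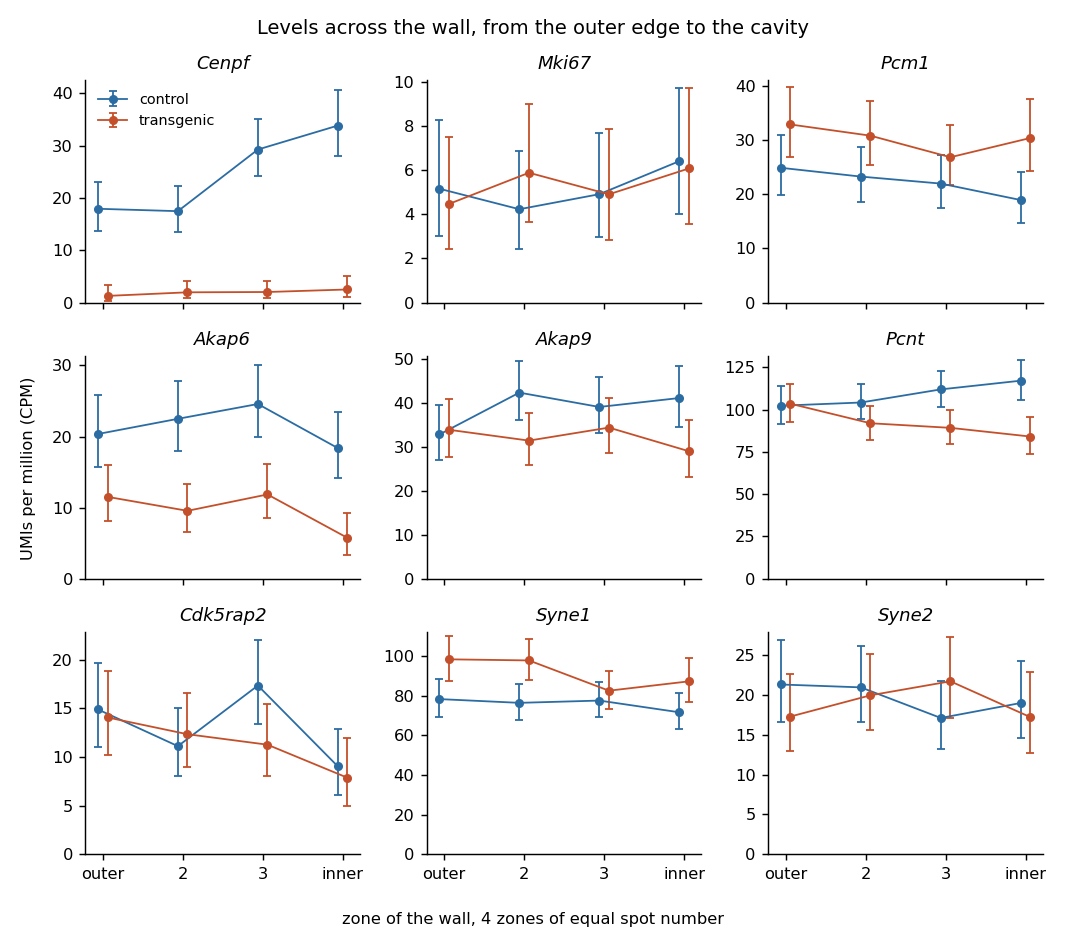
CPM of the 9 genes in 4 zones of equal spot number from the outer edge to the cavity, for the control (blue) and the transgenic (orange) section, with 95% Poisson intervals for counting error. The control Cenpf level goes from 17.9 CPM in the outer to 33.8 CPM in the inner zone, and the Akap6 level is lower in the transgenic section in all 4 zones.

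Across the 4 wall zones of the transgenic section Akap6 held 11.5, 9.53, 11.8 and 5.73 CPM, against 20.4, 22.5, 24.6 and 18.4 CPM in the control section. Its inner over outer fold in the transgenic section was 0.498 (0.258 to 0.920), beside an erythroid list that was 9.06-fold higher in that inner zone, and the part of blood in that value was not tested. In the inner transgenic zone Pcnt was lower (0.812, 0.684 to 0.964), and so was Cdk5rap2 (0.560, 0.320 to 0.955) on 22 and 44 UMIs. Most gene lists were lower there too, among them centrosome (0.911), nuclear envelope (0.850), kinetochore (0.842), endothelial (0.876) and mural (0.703). Only the metabolic (1.18) and erythroid lists were higher. The share of all genes with such folds was not computed for this section, and whether the lower values are particular to these genes was not tested. Moran's I in the transgenic section was 0.0792 for Pcnt, 0.0541 for Mki67, 0.0443 for Syne1 and 0.0382 for Akap6. These stood only at number 1856, 2737, 3343 and 3868 of 19227 genes scored there, so they do not compare with control values of like size.

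**Figure D5:**
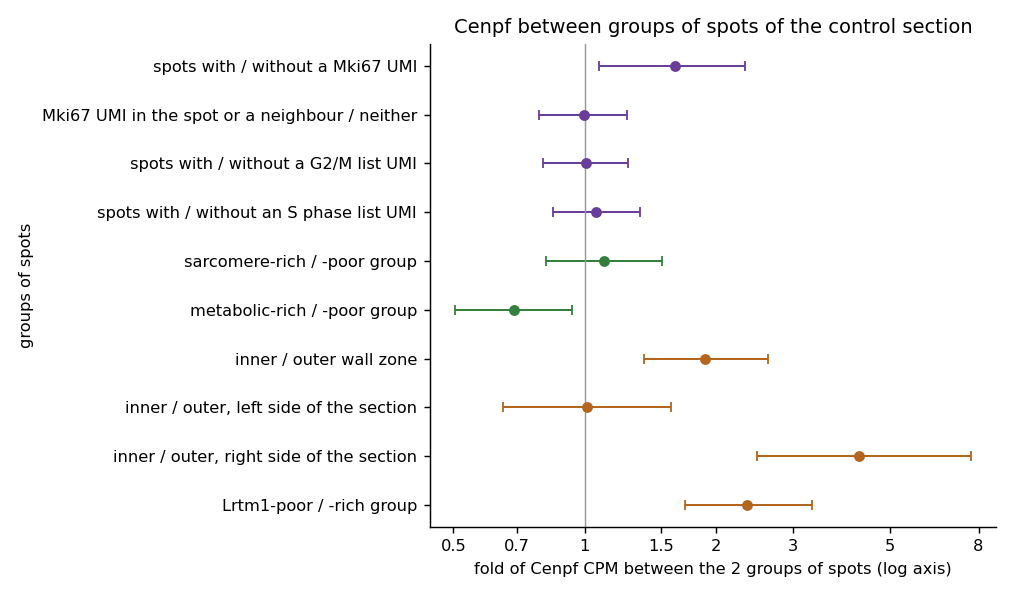
Fold of Cenpf CPM between 2 groups of control spots on a log axis, with 95% conditional binomial intervals for counting error. Purple points split spots by proliferation genes, green by cardiomyocyte genes and brown by wall position or Lrtm1. The split by wall position, chosen after seeing the map, gives 1.89 over the whole section, 4.25 on its right side and 1.01 on its left side. That by Mki67 gives 1.61 and that by sarcomere content 1.11.

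The genes most like Cenpf in level across the control section were sought over 15 tiles of 10 array rows by 20 array columns with 42 to 100 spots each, in which Cenpf ran from 11.0 to 49.5 CPM with a median of 27.0. By Spearman's rho over these tiles the 5 nearest of 7221 genes were Lims1 (0.843), an adaptor of integrin adhesions, Armcx3 (0.829), Haus7 (0.807), a subunit of the augmin complex that branches microtubules, Hspa14 (0.775) and Myh14 (0.775), a nonmuscle myosin. Their log2 ratios between the sections ran from -0.76 for Lims1 to 0.84 for Myh14, beside -3.67 for Cenpf, which was chosen by that ratio. Between the inner and the outer wall zone their folds ran from 0.777 for Haus7 to 1.07 for Myh14, where Cenpf had 1.89. Among those of the 9 genes that had at least 200 control UMIs, Pcm1 was nearest at 0.175 and Akap9 farthest at -0.371. The tiles share 1 library, and these values are a description.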

How the data were processed

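Visium CytAssist gene expression of FFPE hearts was measured in 2 mice, 1 section per genotype. The authors aligned and counted the reads with Space Ranger 2.0.0, per the file headers, and the submitters' notes name bcl2fastq and GRCm39. The deposited values are raw UMI counts per gene and spot over tissue, not normalized. Moran's I was used as the score that the authors deposited for each gene. Other deposited values used are the array row and column of each spot. Promoter sequences came from RefSeq on GRCm38.p6, another build, and were matched by symbol.

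UMIs were summed per section and divided by its total (14376300 and 12953389 UMIs), since spots of 1 section are not replicates. Ratios used genes with at least 20 UMIs over both sections, and comparisons between spots used spots with at least 1000 UMIs and genes with at least 200 control UMIs. Intervals cover counting error only, and a count of 0 would allow up to 3 counts. Wall position came from steps between spots to the outside and to the largest enclosed gap, for the main piece of tissue (1245 control and 921 transgenic spots). Scripts ran in Python 3.11.15 (scipy 1.17.1), with edgeR 4.0.16 TMM factors and DESeq2 1.42.0 size factors as alternatives in R 4.3.3. Intervals were checked on simulated counts drawn independently per section or spot, which does not cover clustering of counts between neighbouring spots. The Wilcoxon test that the study ran with spots as samples was not used here.

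The members and gene lists were chosen with earlier results of these data known. The genes named are the 9 members, Top2b, the highest and lowest member of each cell cycle, kinetochore, centrosome, nuclear envelope and partner list, functional partners of a member, the 5 genes most like Cenpf over tiles, and the neighbours of Cenpf in the order of log2 ratios. Other list genes are named where they make up a count past 2-fold, hold the most UMIs or mark the range of the sarcomere or fibroblast list. They were chosen after their values were seen. The markers of atrial (6) and epicardial (6) cells were used for comparisons between spots. Alternatives were other scalings, spot filters, bins and spot groups. Those by wall position and those per list UMI were chosen after seeing the data. Section images were not used here.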

Additional observations from a re-analysis of the deposited data

How the results depend on the processing

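The log2 ratio of Cenpf ran from -3.83 to -3.13 over 8 alternatives (TMM or DESeq2 scaling, totals without the 50 most abundant genes, interior spots, spots with at least 1000 UMIs, the 50% of spots richest in sarcomere genes, means over spots, 1 CPM added), and Cenpf and Akap6 were the 2 genes past 2-fold lower, with 0 past 2-fold higher, in each of those 8. With list UMIs as the base, added after seeing the data, Cenpf was at -2.92 (sarcomere) and -2.59 (metabolic), 1 gene was past 2-fold lower on either base, 2 and 4 were higher, and Akap9 (0.48 and 0.82) and Pcnt (0.51 and 0.85) turned direction. Those bases move every gene by the same amount, and the share of all genes past 2-fold on them was not computed. The fold of Cenpf with Mki67 was 1.01 with the G2 and mitosis list, 1.06 with the S phase list and 0.995 (0.786 to 1.25) with neighbours added. All of these were near 1 with intervals that spanned 1. With other spot filters and within wall layers the fold lay between 1.46 and 1.77. Its interval reached 1 for interior spots (1.52, 0.981 to 2.25), the outer layer (1.46, 0.653 to 2.88) and the inner layer (1.62, 0.991 to 2.51). The fold by sarcomere share became 0.689 with the metabolic list, and that of Syne1 turned from 0.769 to 1.12. The wall fold, chosen after seeing the data, was 1.01 on the left and 4.25 on the right side and lay between 1.78 and 1.91 in the other 6 alternatives. The causes of these moves were not tested. No paired analysis was possible because each genotype has 1 section. Low counts limit Mki67 (74 and 69 UMIs) and transgenic Cenpf (25 UMIs).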
